A study of Mus musculus with 2 samples.

Results

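Low-UMI insulin barcodes are droplets of the islet libraries that carried few RNA molecules and still held insulin RNA above the other islet hormones. A barcode is the sequence that marks 1 droplet, and a UMI (unique molecular identifier) marks 1 captured RNA molecule. The barcodes were chosen by 5 limits: at least 500 detected genes, at most 15% of UMIs from mitochondrial genes, fewer than 3000 UMIs, Ins1 plus Ins2 above 1% of UMIs, and Ins1 plus Ins2 above 4 times the sum of glucagon, somatostatin, pancreatic polypeptide and peptide YY RNA. The limits found 603 barcodes in the control library and 1961 in the knockout-labelled library, or 2564 of the 17801 deposited barcodes. UMI number, gene number, insulin share and the upper end of the mitochondrial share were set by these limits, so their values describe the choice and are not findings. Each library's own comparison group was the insulin barcodes of the same hormone limits with 5000 or more UMIs, 2636 in the control library and 4257 in the knockout-labelled library.

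The study examined SPOP, which brings substrates to a CUL3-based ubiquitin ligase, in the unfolded protein response of mouse beta cells. Islets came from 12-week-old female mice on a C57BL/6 background, either Spopfl/fl (floxed Spop, control) or SpopβKO (Spop deleted in beta cells). All islets recovered for 3 days in RPMI medium with 10 mM glucose, were dispersed with trypsin, and were cleared of dead cells and debris and captured with the 10x Genomics 3′ chemistry. There was 1 library per genotype. The number of mice pooled, the Cre driver and the deleted exons were not given in the sources used here.

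A droplet library holds barcodes of whole cells, of nuclei or cells that have lost cytoplasm, and of cell fragments. Cytoplasmic messages such as those of ribosomal proteins and glycolytic enzymes leave a cell whose membrane has opened, whereas Malat1, Neat1 and other long noncoding RNAs are retained in the nucleus. Beta cells hold very large amounts of insulin RNA, so that insulin RNA set free in the suspension is also captured by droplets of other cells.

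With 1 library per genotype no test between conditions was possible, and no p-value is given. Counts were summed over the barcodes of a class in each library and scaled to CPM, the count a gene would have in a sum of fixed size, with TMM factors that align the bulk of the genes between sums. Brackets give 95% exact intervals, which cover counting error only and not the variation between mice or preparations. A gene was called where low-UMI and high-UMI sums differed by at least 1.5-fold in the same direction in both libraries, among 8614 genes with a mean of at least 10 CPM. Log2 ratios are low-UMI over high-UMI unless stated otherwise.

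Spop (ENSMUSG00000057522, mm10 chromosome 11, 95414080 to 95493406, plus strand, protein-coding) did not follow the labels. Low-UMI insulin barcodes held 52.2 CPM (39.6 to 67.5, 58 UMIs) in the control library and 44.5 CPM (37.9 to 51.8, 163 UMIs) in the knockout-labelled library, a log2 ratio between libraries of -0.23 (-0.67 to 0.23), or -0.016 with unscaled CPM. High-UMI insulin barcodes held 74.3 CPM in the control and 94.4 in the other library, a log2 ratio of 0.35 (0.28 to 0.41). A 3′ tag outside the deleted exons would not report the deletion, so the second library is named only by its label, as the knockout-labelled library. The libraries shared 21 barcode sequences, of which 1 was a low-UMI insulin barcode in both.

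Low-UMI insulin barcodes made up 8.80% (8.14 to 9.50) of the filtered barcodes of the control library and 22.2% (21.3 to 23.1) of those of the knockout-labelled library. Among insulin barcodes of any depth their share was 17.2% (16 to 18.5) and 29.0% (27.9 to 30.1). All barcodes under 3000 UMIs, whatever their hormone, were 16.6% (15.7 to 17.5) and 24.0% (23.1 to 24.9) of filtered barcodes. The hormone limits admitted 53.1% of those in the control library and 92.3% in the other. Dead-cell removal and the authors' rule for calling barcodes can set such shares, and the lowest deposited totals were 501 and 500 UMIs. Low-UMI insulin barcodes had a median depth of 1625 and 1390 UMIs with 851 and 778 genes, against 11986.5 and 12205 UMIs with 3633.5 and 3584 genes in high-UMI barcodes. Their summed depth was 1039743 and 2954040 UMIs, against 40386805 and 61143818, so the control low-UMI sum is the least precise of the 4.

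The limits act on insulin, so the insulin values of the classes are a description and do not check the label. Low-UMI glucagon barcodes, with the reverse hormone limits, held a median of 14 insulin UMIs in the control library (68 barcodes) and 33.5 in the knockout-labelled library (32 barcodes). Low-UMI insulin barcodes held medians of 51 and 76. High-UMI glucagon barcodes held medians of 22 and 62 insulin UMIs, so insulin RNA in glucagon barcodes was higher in the library where the hormone limits admitted more low-UMI barcodes. How much of the difference in admitted barcodes this made up was not tested.

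Beta cell markers other than hormones were, as a sum, above their level in low-UMI glucagon barcodes, though not every gene was. The summed level of G6pc2, Slc2a2, Mafa, Nkx6-1, Pdx1, Ucn3 and Slc30a8, as unscaled CPM, was 487 (445 to 531) and 592 (565 to 620) in low-UMI insulin barcodes. It was 302 (218 to 409) and 306 (189 to 468) in low-UMI glucagon barcodes, where Slc30a8, a zinc transporter that alpha cells also express, gave 25 of 42 and 9 of 21 UMIs, and 766 and 1261 in high-UMI insulin barcodes. Mafa, a beta cell transcription factor, stood at 143 and 135 CPM in low-UMI insulin barcodes. In low-UMI glucagon barcodes it stood at 28.8 and 43.7 CPM, on 4 and 3 UMIs. Slc30a8 went the other way in the control library, at 126 (105 to 150) against 180 (116 to 266) CPM, and stood at 142 against 131 CPM in the other. Nkx6-1 stood at 88.5 against 64.8 (29.6 to 123) CPM and at 94.8 against 58.3 (15.9 to 149) CPM. G6pc2, Slc2a2, Pdx1 and Ucn3 rested on at most 4 UMIs in low-UMI glucagon barcodes of either library. Of the alpha cell markers, Slc7a2, an amino acid transporter, stood at 77.9 and 60.9 CPM, against 223 and 102 in low-UMI glucagon barcodes, where it rested on 31 and 7 UMIs, and 46.9 and 53 in high-UMI insulin barcodes. Gc, the vitamin D binding protein, stood at 13.5 and 12.5 CPM, against 158 and 72.8 in low-UMI glucagon barcodes. Gcg itself had a UMI in 97.2% and 84.4% of low-UMI insulin barcodes. Its summed level there was 2535 and 1557 CPM, against 2219 and 1659 CPM in high-UMI insulin barcodes. With barcodes thinned to equal depth, Gcg was found in 87.3% and 73.9%, against 59.3% and 35.6% of high-UMI insulin barcodes. The median summed share of the other islet hormones, on which the limits act, was 0.299% and 0.198%, against 0.108% and 0.0626%. The close summed Gcg levels thus do not describe the typical barcode. All low-UMI barcodes outside the insulin gate held a beta marker sum of 367 (327 to 410) and 320 (259 to 392). Their Mafa stood at 94.0 and 54.5 CPM and their Nkx6-1 at 85.8 and 61.4 CPM. The beta marker sum of low-UMI insulin barcodes was thus above that of both other low-UMI classes and below that of high-UMI insulin barcodes.

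Of the 3 genes given as marks of these barcodes, Ins2 was lower than in high-UMI barcodes, Gm42418 was higher, and Snhg11 was seen in few barcodes. Snhg11 (chromosome 2, 158375638 to 158386145, a small nucleolar RNA host gene) had a UMI in 3.48% of the control low-UMI insulin barcodes and in 11.3% of those in the knockout-labelled library. With each barcode thinned to 1000 UMIs the shares were 1.87% (0.898 to 3.40) and 8.79% (7.45 to 10.3), against 0.873% and 3.83% in high-UMI insulin barcodes and 3.08% and 3.45% in low-UMI glucagon barcodes. Thinning left out 67 and 345 shallower low-UMI insulin barcodes. The control share was under that of control glucagon barcodes, whose interval (0.375 to 10.7) spans it. In the knockout-labelled library the interval of the 29 thinned glucagon barcodes (0.0873 to 17.8) also spans the low-UMI insulin share. Neither share is therefore read as expression above that of glucagon barcodes. The summed level of Snhg11 was 23.4 against 8.75 CPM in the control library and 103 against 58.9 CPM in the other.

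Ribosomal protein RNA made up a smaller part of insulin barcodes in the 3 tiers of depth under 3000 UMIs than in the 4 tiers above, and nuclear long noncoding RNA a larger part. The median share of ribosomal protein RNA was 4.05% under 1000 UMIs, 3.36% from 1000 and under 2000, and 4.35% from 2000 and under 3000 UMIs in the control library. It was then 12.7% from 3000, 12.8% from 5000, 13.7% from 10000 and 16.6% from 20000 UMIs, each tier reaching up to the next. In the knockout-labelled library the same tiers held 6.00%, 4.38%, 4.95%, 15.4%, 13.7%, 13.6% and 15%. The largest change between neighbouring tiers was at 3000 UMIs in both libraries. RNA of nuclear-encoded oxidative phosphorylation subunits had medians of 0.912%, 0.794%, 0.904% and then 1.97% in the first 4 control tiers and of 1.29%, 0.988%, 1.17% and then 2.45% in those of the other library. Nuclear-retained long noncoding RNA had medians of 8.32%, 9.01%, 6.26%, 2.68%, 2.58%, 2.02% and 1.66% over the 7 control tiers and of 9.57%, 15.6%, 10.2%, 3.87%, 3.02%, 2.37% and 1.97% over the others. The share of barcodes with at least 5% Malat1 fell over several tiers, from 69.5% at 1000 to 53.5%, 18.3%, 11.6%, 4.85% and 1.52% in the control library and from 82.1% to 66.4%, 33.8%, 17.9%, 5.33% and 2.05% in the other.

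**Figure D1:**
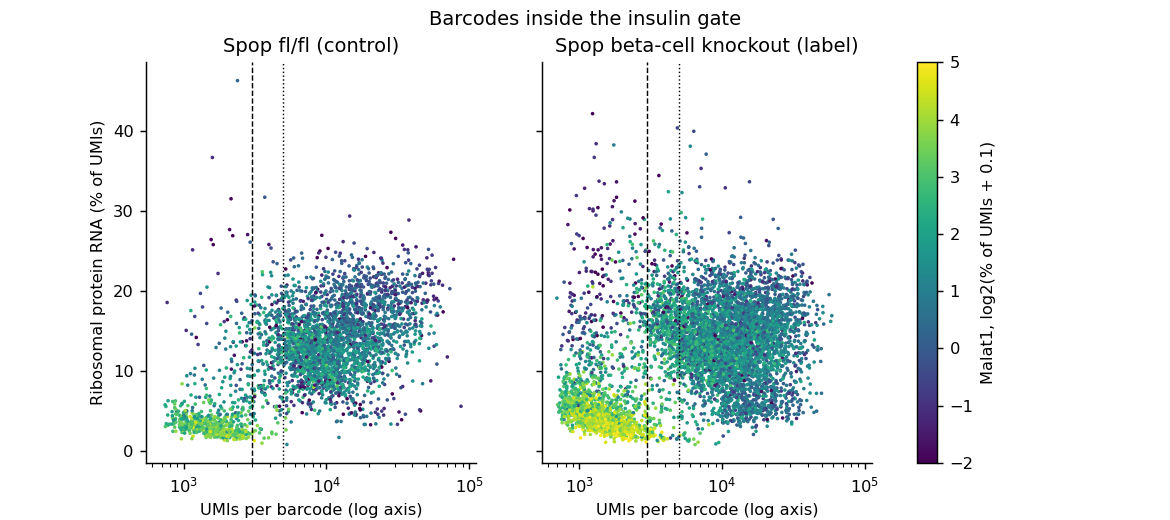
Each point is 1 barcode inside the insulin gate, with UMIs per barcode on a log axis, the share of UMIs from cytosolic ribosomal protein genes on the vertical axis and Malat1 share as colour. The dashed line marks 3000 and the dotted line 5000 UMIs. Most barcodes under 3000 UMIs lie under 8% and are rich in Malat1, whereas most at higher depth lie at 8% or more.

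**Figure D2:**
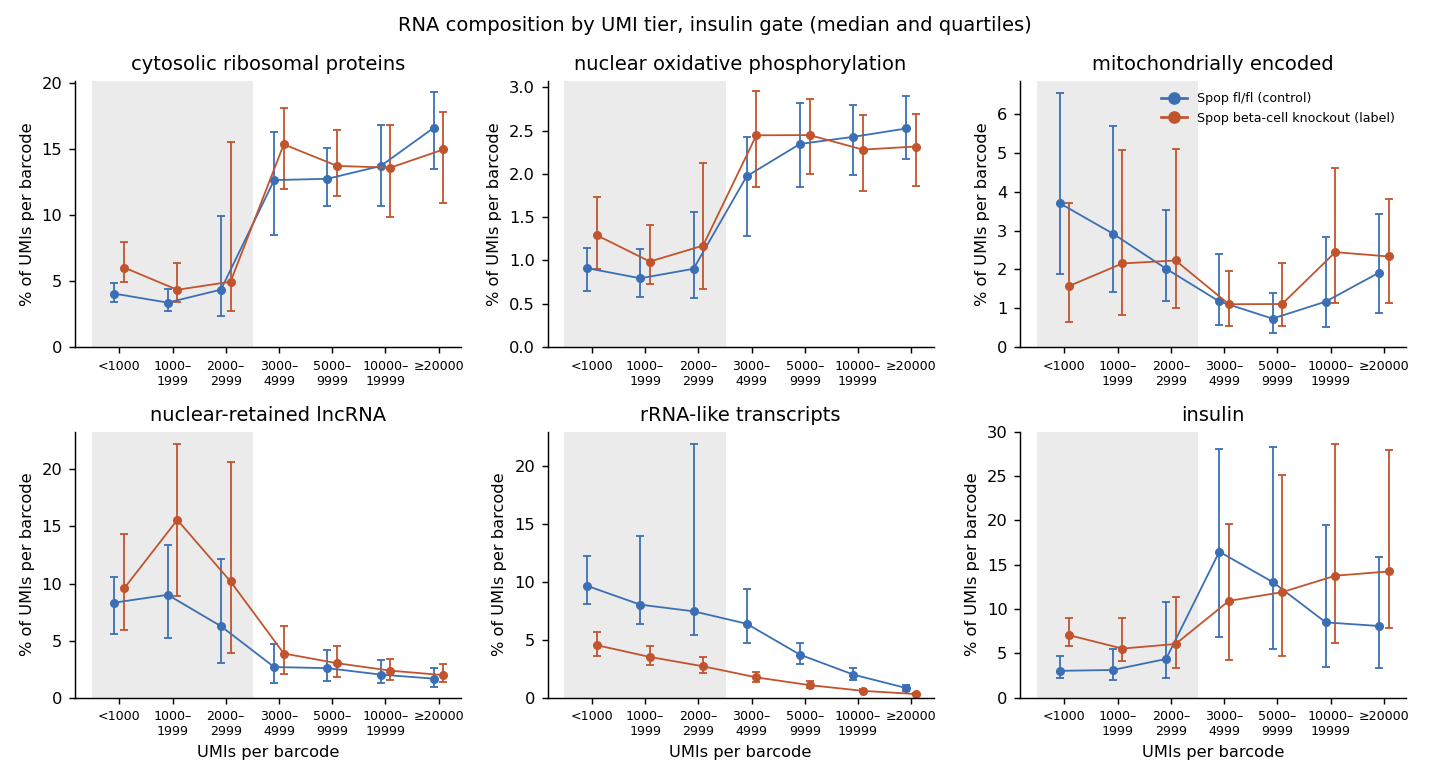
Median share of UMIs per barcode (points) and its quartiles (bars) in 7 tiers of depth, for 6 RNA groups in both libraries. The grey area holds the low-UMI barcodes. Median ribosomal protein and oxidative phosphorylation shares are higher in the tiers from 3000 UMIs than in those below, nuclear-retained long noncoding RNA is lower, and rRNA-like RNA declines over all tiers.

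Within 250 UMIs of the limit of 3000 the medians lay close together. Control barcodes with 2750 or more and under 3000 UMIs, just inside the limit, had a median ribosomal protein share of 9.35% (39 barcodes) and those with 3000 or more and under 3250 UMIs, just outside, 7.29% (30 barcodes). In the knockout-labelled library these medians were 10.5% (70 barcodes) and 11.9% (64 barcodes). Barcodes just under the insulin limit, with 0.5 to 1% insulin, numbered 18 and 3 and held 1.91% and 22.0% ribosomal protein RNA, against 2.66% and 22.5% just above it in 56 and 3 barcodes. Barcodes with 15 to 18% mitochondrial UMIs, just outside that limit, held 3.20% and 4.40%, against 3.03% and 4.0% at 12 to 15%. With insulin at 2 to 4 times the other hormones, just outside the gate, the medians were 3.30% and 4.82%, against 3.30% and 5.24% at 4 to 6 times. Barcodes with 450 or more and under 500 genes held 4.48% and 7.62%, against 4.19% and 6.60% with 500 or more and under 550 genes.

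Low-UMI insulin barcodes covered a wide range of ribosomal protein share, and most lay under 8%. A ribosomal protein share under 8% was found in 83.1% (79.8 to 86.0) of the 603 control barcodes and in 76.4% of the 1961 others, against 21.8% and 14.9% of insulin barcodes with 3000 or more and under 5000 UMIs and 7.09% and 12.8% of high-UMI barcodes. Within the low-UMI barcodes it was 97.0%, 88.6% and 69.3% over the 3 control tiers and 75.1%, 81.2% and 61.2% over the others. The limit of 8% was set after the values were seen, and 3.15% and 6.58% of the low-UMI insulin barcodes lay between 7 and 9%. Barcodes at 8% or more were spread widely, with quartiles of 10.2 to 16.8% and 10.5 to 19.7%. The limit thus divides a continuous range and does not mark a gap between 2 classes. The 501 and 1498 barcodes under it had median Malat1 shares of 8.82% and 15.7%, and the 102 and 463 barcodes at 8% or more had 1.80% and 2.21%, near the 1.84% and 2.18% of high-UMI barcodes. Median insulin share was 3.00% and 5.47% under the limit and 8.14% and 10.1% above it.

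Barcodes on either side of 8% had median depths of 1382 and 1404 UMIs in the knockout-labelled library, and of 1541 and 2163 in the control library. Nuclear oxidative phosphorylation RNA had medians of 0.749% and 0.902% in the barcodes poor in ribosomal protein RNA and of 1.93% and 2.38% in the others. Mitochondrially encoded RNA went the other way, at 3.08% and 2.47% against 1.33% and 1.26%. RNA of 27 splicing regulators and nuclear speckle proteins also went with Malat1, at 1.43% and 1.23% against 0.51% in each library. Summed beta markers without hormones in the barcodes poor in ribosomal protein RNA were 450 (406 to 499) and 596 CPM. All low-UMI insulin barcodes held 487 and 592 CPM. The control interval overlaps that of low-UMI barcodes outside the gate (327 to 410).

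Across single low-UMI insulin barcodes, ribosomal protein share and Malat1 share had Spearman correlations of -0.67 (603 barcodes) and -0.70 (1961 barcodes). Ribosomal protein share and nuclear oxidative phosphorylation share had 0.72 and 0.76, ribosomal protein and insulin share 0.44 and 0.47, and ribosomal protein and mitochondrially encoded share -0.17 and -0.14. These are descriptions, since all shares in a barcode have 1 total and 1 library in common. Median Malat1 was 5.14%, 7.30% and 8.23% in control barcodes with under 1%, 1 to 5% and 5 to 15% mitochondrial UMIs. It was 13.1%, 13.0% and 10.6% in the others. Summed ribosomal protein share fell over the same classes, at 8.57%, 5.89% and 3.66% and at 9.74%, 6.97% and 5.09%. Its medians moved less, at 4.35%, 3.62% and 3.31% and at 5.17%, 4.69% and 4.59%.

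Low-UMI barcodes outside the insulin gate were poor in ribosomal protein RNA to different degrees. A share under 8% was found in 81.8% and 47.0% of all low-UMI barcodes outside the gate. Among low-UMI glucagon barcodes it was found in 38.2% (26 of 68) and 15.6% (5 of 32). At least 5% Malat1 was held by 77.1% and 56.1% of those outside the gate, against 64.2% and 78.1% of low-UMI insulin barcodes. A high Malat1 share was thus not particular to the insulin barcodes, and in the control library it was more frequent outside the gate. Median ribosomal protein share was 13.4% in low-UMI against 19.9% in high-UMI glucagon barcodes of the control library, and 22.5% against 21.7% in the other. Nuclear long noncoding RNA had medians of 4.35% against 3.27% and of 2.23% against 2.66%. Low-UMI glucagon barcodes of the knockout-labelled library thus lay near the deeper ones in these medians.

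Over all tested genes, 959 were called higher and 2791 lower in low-UMI insulin barcodes, or 11.1% and 32.4% of 8614. A further 12 genes, 0.139%, passed 1.5-fold in opposite directions in the libraries. This split depends on scaling: 25.6% of the calls were higher with TMM factors and 61.2% with unscaled CPM over the same genes. With unscaled CPM 2013 of these 8614 genes were called higher and 1277 lower. The median log2 ratio of all tested genes was -0.26 in the control library and -0.41 in the other with TMM factors, and leaving out the factors raises every ratio by 0.27 and 0.54. Directions below are therefore relative to the TMM scale, and each gene group whose direction turns without it is named.

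Nuclear-retained long noncoding RNAs were higher in low-UMI insulin barcodes. Of 12 tested list members, 9 were called higher and none lower, with median log2 ratios of 1.27 and 1.07, and their summed share of UMIs was 8.87% against 2.23% in the control library and 14.3% against 2.58% in the knockout-labelled library. Malat1 (ENSMUSG00000092341, chromosome 19, 5795690 to 5802672, minus strand), an RNA of nuclear speckles, made up most of it, with 7.97% of summed UMIs against 1.95%, and 13.4% against 2.33%. On the TMM scale it stood at 74577 against 22040 CPM, a log2 ratio of 1.76 (1.75 to 1.77), and at 107981 against 27351 CPM, a ratio of 1.98 (1.98 to 1.99). Low-UMI sums were thus above high-UMI sums in both libraries.

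The other members had the same direction with smaller sums. Meg3, an imprinted noncoding RNA, stood at 3325 against 882 CPM and at 2851 against 994 CPM, log2 ratios of 1.92 and 1.52. Neat1, the scaffold of nuclear paraspeckles, stood at 1497 against 498 CPM and at 795 against 315 CPM, ratios of 1.59 and 1.34. After thinning to 1000 UMIs, Neat1 had a UMI in 64.2% and 49.8% of low-UMI insulin barcodes, in 34.1% and 22.6% of high-UMI insulin barcodes and in 23.1% and 20.7% of low-UMI glucagon barcodes. The unthinned shares were 74.1% and 58.3%, and 90.7% and 82.5% in the deeper barcodes. Kcnq1ot1, a noncoding RNA of an imprinted domain, had ratios of 1.35 and 1.28, and Xist, which coats the inactive X chromosome, 0.97 and 1.15. Mirg was the exception, at -0.34 (-1.35 to 0.52) in the control library and 0.61 (0.27 to 0.94) in the other.

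Messages of splicing regulators and nuclear speckle proteins were also higher, in a list of 27 genes made after the values were seen. Of these, 17 were called higher and none lower, with median log2 ratios of 1.03 and 0.84. Clk1, a kinase that phosphorylates splicing factors, stood at 368 against 93.9 CPM and at 328 against 97.0 CPM, ratios of 1.97 (1.82 to 2.12) and 1.76 (1.67 to 1.85). Ccnl1, a cyclin of splicing speckles, had ratios of 2.05 and 1.61, and Son, a core speckle protein, 1.51 and 1.23. Tra2b, a splicing activator, was at the low end with -0.27 and -0.05, and Srsf4 gave 0.12 (-0.32 to 0.53) and -0.73 (-1.09 to -0.39).

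Transcripts that overlap ribosomal RNA-like sequence had the highest list medians, with log2 ratios of 2.63 and 2.20. Gm42418 (ENSMUSG00000098178, chromosome 17, 39846958 to 39848788, plus strand) stood at 117285 against 19214 CPM in the control library and at 29916 against 6399 CPM in the knockout-labelled library, log2 ratios of 2.61 (2.60 to 2.62) and 2.23 (2.22 to 2.23). AY036118 on the opposite strand of the same locus had ratios of 2.15 and 2.17, the neighbouring Gm26917 had 2.64 and 2.05, and Lars2 (chromosome 9, 123366927 to 123462666), which encodes the mitochondrial leucyl-tRNA synthetase, had 3.32 and 2.43. All 4 were called higher. Reads of ribosomal RNA can be assigned to these genes, so their counts are uncertain as gene expression.

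This group did not follow Malat1. Its median share declined over all depth tiers, from 9.65% under 1000 UMIs to 0.82% at 20000 or more in the control library and from 4.53% to 0.31% in the other. Against barcodes with 3000 or more and under 5000 UMIs the control log2 ratio of the summed share was 0.24. Inside the low-UMI barcodes its median was 7.93% in control barcodes poor in ribosomal protein RNA and 13.1% in the others, and 3.54% and 3.51% in the knockout-labelled library. Malat1 and rRNA-like shares had Spearman correlations of -0.43 and -0.19 across low-UMI insulin barcodes.

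Cytosolic ribosomal protein messages were lower. All 80 tested genes were called lower, with median log2 ratios of -1.64 and -1.49, and the summed share was 5.82% against 15% in the control library and 7.28% against 13.8% in the other. Rps2, a protein of the small subunit, stood at 497 against 2135 CPM and at 462 against 1564 CPM, ratios of -2.10 (-2.23 to -1.98) and -1.76 (-1.83 to -1.69). Rplp0, of the ribosomal stalk, had -2.10 and -1.66, and Rps21 -1.21 in each library. Rpl7l1, whose product works in ribosome assembly, was the least reduced, at -0.82 and -0.76. Ribosomal protein genes and Gapdh have many processed pseudogenes, so reads may be divided between copies.

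Other abundant cytosolic messages were lower too. Of 19 genes of translation elongation, the cytoskeleton and the cytosol, 17 were called lower and none higher, with medians of -1.49 and -1.28. Gapdh, a glycolytic enzyme, stood at 118 against 560 CPM and at 138 against 504 CPM, ratios of -2.25 (-2.51 to -2.0) and -1.87 (-2.0 to -1.75), and had a UMI in 12.5% and 14.5% of thinned low-UMI insulin barcodes against 32.1% and 32.9% of thinned high-UMI barcodes. Without thinning the shares were 17.2% and 19.6% against 93.4% and 94.3%. Eef1a1, the main elongation factor, had ratios of -1.51 and -1.53 and Actb, cytoplasmic actin, -1.56 and -1.24. Among those not called was Tmsb4x, an actin-binding peptide, at 0.31 and -0.02.

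Nuclear-encoded genes of the respiratory chain were lower in both libraries. Mitochondrially encoded genes differed between the libraries in their median direction on the TMM scale but not with unscaled CPM. Of 86 tested nuclear genes of oxidative phosphorylation, 81 were called lower and none higher, with medians of -1.54 and -1.39. Atp5g1, a subunit of the ATP synthase rotor, stood at 184 against 720 CPM and at 201 against 660 CPM, and Uqcrq of complex III at 316 against 1164 CPM and at 304 against 982 CPM. Sdhb, the iron-sulfur subunit of complex II, had ratios of -2.18 and -1.81. Ndufaf4, an assembly factor of complex I, was the exception at 0.23 (-0.01 to 0.46) and 0.53 (0.39 to 0.66).

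Of the 13 mitochondrially encoded genes none was called higher and 2 were called lower, with medians of 0.32 in the control library and -0.41 in the other, where the median turned to 0.13 with unscaled CPM. The summed share was 3.33% against 2.18% and 3.38% against 2.75% of UMIs, and the limit of 15% cuts it from above. mt-Co3, a subunit of complex IV, stood at 6390 against 3367 CPM and at 4597 against 4259 CPM. mt-Nd1 of complex I was lower, at 818 against 1626 CPM and at 1133 against 2072 CPM, and mt-Nd3 had ratios of -0.91 and -1.14. With no limit on mitochondrial UMIs, mt-Nd1 turned to 0.93 and 0.40 and mt-Nd3 to 1.02 and 0.19. The mitochondrial results thus depend on the limit that chose the barcodes and on the scaling.

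Stress genes were divided and did not form 1 pattern. Of 17 endoplasmic reticulum chaperones 10 were called lower and none higher, with medians of -0.83 and -0.77. Sdf2l1, a cofactor of the chaperone BiP, stood at 22.5 against 95.7 CPM and at 28.9 against 91.1 CPM, whereas Hspa5, which encodes BiP, stood at 2052 against 2087 CPM and at 1238 against 1512 CPM, ratios of -0.02 (-0.09 to 0.04) and -0.29 (-0.33 to -0.24). Dnajb9, an ER co-chaperone, was at 0.58 and 0.28. Of 20 genes of the ATF4 and CHOP branch of the stress response, 11 were called lower and none higher, with medians of -0.98 and -1.11. Psat1, of serine synthesis, had -2.38 and -2.02, Chac1, which degrades glutathione, -2.35 and -1.89, and Ppp1r15a, the eIF2 phosphatase subunit, -0.10 and 0.04.

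Oxidative stress and metallothionein genes were called lower in 10 of 14 cases and higher in none, with medians of -0.88 and -0.87. Prdx1, a peroxidase of the cytosol, stood at 82.8 against 312 CPM and at 111 against 266 CPM. Txnip, which binds thioredoxin and responds to glucose, differed in direction, at 32.4 against 17.2 CPM in the control library and 44.7 against 79.6 CPM in the other. Heat shock genes were called higher in 1 and lower in 5 of 14 cases, with medians of -0.48 and -0.39, of which the second turned to 0.16 with unscaled CPM. The calls turned to 5 higher and 2 lower on that scale, where 2013 of all 8614 tested genes were higher and 1277 lower. On the TMM scale the share called lower is near the 32.4% of all tested genes. Hspd1, the mitochondrial chaperonin, had ratios of -1.34 and -1.09, and Dnajb4, a cochaperone of the cytosol, 1.21 and 1.11. The inducible Hspa1a had 0.39 (0.05 to 0.72) and 0.66 (0.27 to 1.02), and it shares reads with the near-identical Hspa1b.

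Immediate early and p53-related genes held members on both sides. Of 15 tested immediate early genes 4 were called higher and 2 lower, with medians of 0.58 in the control library and -0.30 in the other, which turned to 0.24 with unscaled CPM. Klf6, a zinc finger factor, stood at 246 against 70.9 CPM and at 133 against 45.9 CPM, and Junb had ratios of 1.85 and 0.64, whereas Atf3 had -0.92 and -1.23. Of 14 p53-related genes 2 were called higher and 5 lower, with medians of 0.38 and -0.07, of which the second turned to 0.47 with unscaled CPM. Trp53inp1, a p53-induced gene, stood at 495 against 188 CPM and at 207 against 89.8 CPM, and Bcl2l11, the proapoptotic BIM, at 84.6 against 27.2 CPM and at 28.1 against 15.5 CPM. Bax, another proapoptotic gene, was lower, at 129 against 422 CPM and at 124 against 310 CPM, and Phlda3 had -1.88 and -1.43.

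Beta cell genes outside insulin differed in degree. Of 18 genes of granule cargo and prohormone processing 7 were called lower and none higher, with medians of -0.53 and -0.86. This share is near the 32.4% of all tested genes. With unscaled CPM 4 were called lower, against 1277 of all 8614 tested genes. Iapp, which encodes amylin, stood at 5224 against 15804 CPM and at 6733 against 27212 CPM, ratios of -1.60 (-1.63 to -1.56) and -2.01 (-2.03 to -2.0), and Ucn3, a peptide of mature beta cells, had -1.16 and -2.21. Ptprn2, a granule membrane phosphatase, was at 0.28 and -0.25. G6pc2, the islet glucose-6-phosphatase, ranked first among the lower genes, at 11.7 against 81.7 CPM and at 63.3 against 278 CPM, but rested on 13 UMIs in the control low-UMI sum.

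Transcription factors and glucose-sensing genes were mixed. Of 14 beta cell transcription factors 1 was called higher and 5 lower, with medians of 0.00 and -0.79, of which the first was 0.27 with unscaled CPM. Mlxipl, the glucose-responsive factor ChREBP, stood at 202 against 53.4 CPM and at 155 against 77.4 CPM, ratios of 1.92 and 1.00, whereas Nkx6-1 had -1.14 and -1.73 and Mafa -0.75 and -1.81. Of 18 genes of glucose sensing and exocytosis 6 were called lower and none higher, with medians of -0.14 and -0.56, of which the first turned to 0.13 with unscaled CPM. Slc2a2, the glucose transporter GLUT2, had -1.16 and -1.69, Trpm5, a cation channel, -1.51 and -1.83, and Snap25, a protein of vesicle fusion, 1.10 and 0.45. Of the ligase genes, Cul3 had -0.50 and -0.96, Rbx1, its RING subunit, -1.49 and -1.24, and Spopl, a SPOP paralog, 0.95 and 1.07. The shares called lower among p53-related, transcription factor and glucose-sensing genes are also near the 32.4% of all tested genes. With unscaled CPM the calls were 4 higher and 3 lower among p53-related genes, 1 and 1 among transcription factors, and 4 and 6 among glucose-sensing genes. They were 7 and 1 among immediate early genes, 1 and 4 among endoplasmic reticulum chaperones, and 0 and 5 among oxidative stress genes. Over all 8614 tested genes 2013 were higher and 1277 lower on that scale, so higher calls were frequent whatever the list.

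**Figure D3:**
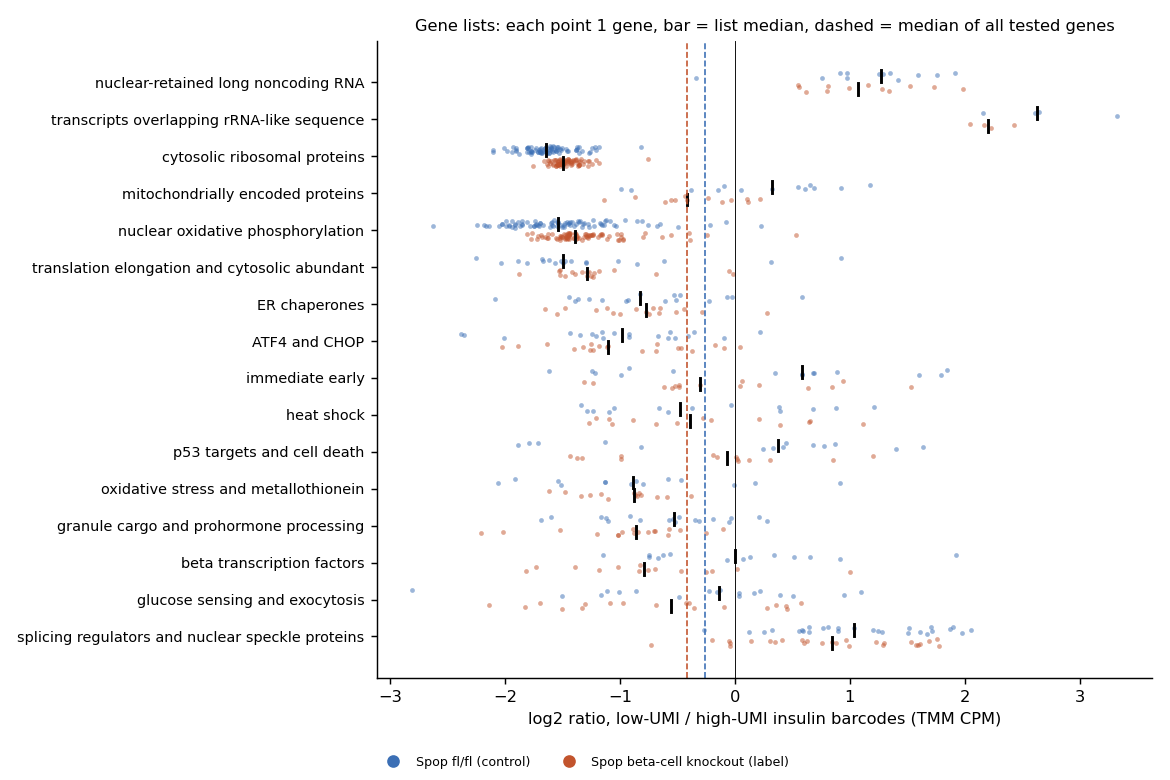
Each point is the log2 ratio of 1 gene between low-UMI and high-UMI insulin barcodes on the TMM scale, in 16 gene lists and 2 libraries. Black bars are list medians and dashed lines the medians of all 8614 tested genes (-0.26 and -0.41). Ribosomal protein and oxidative phosphorylation genes lie to the left in both libraries, and nuclear RNA and splicing genes to the right.

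The gate acts on the summed insulin share, so the levels of the 2 insulin genes are a description. Ins2 (chromosome 7, 142678656 to 142743381) stood at 58748 against 146665 CPM in the control library and at 51930 against 160794 CPM in the other. Ins1 (chromosome 19, 52264297 to 52265476) stood at 5115 against 17189 CPM and at 12704 against 57179 CPM. The gate uses their sum and not their ratio: Ins1 was 8.01% (7.81 to 8.21) of insulin UMIs in low-UMI and 10.5% in high-UMI control barcodes, and 19.7% (19.5 to 19.8) and 26.2% in the knockout-labelled library. In low-UMI glucagon barcodes, where the source of the insulin RNA was not tested, it was 12.7% (10.6 to 15.1) and 24.6% (22.0 to 27.4). Within the knockout-labelled library the share was 21.4% under 1000 UMIs, 13.8% from 3000 and under 5000 UMIs and 29.2% at 20000 or more, so it did not follow depth in 1 direction.

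The genes furthest apart, ranked by how far their intervals stay from equality, held both groups. The 15 highest were Lars2, Gm42418, AY036118, 4932422M17Rik, 2900093K20Rik, Gm26917, Ranbp6, Hist2h4, Zmym6, Malat1, 6230400D17Rik, 2610037D02Rik, Zbtb43, Depp1 and Clk1, of which 8 are annotated as long noncoding RNA. 2900093K20Rik, an antisense transcript, stood at 658 against 151 CPM and at 511 against 105 CPM, and 4932422M17Rik at 171 against 28.8 CPM and at 76.7 against 16.4 CPM. Whether counting used strand is not given in the sources used here, so antisense genes may hold reads of their partners, and Hist2h4 has near-identical histone copies. Depp1, a gene induced by FOXO factors, stood at 165 against 33.2 CPM and at 60.6 against 16.3 CPM.

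The 15 lowest were G6pc2, Enho, Avpi1, Gapdh, Trappc2l, Ins1, Rps2, Nenf, Mrps24, Mrpl54, Edf1, Gsdma, Gnai2, Atp5g1 and Uqcrq, all protein-coding. Mrps24 and Mrpl54, which encode mitochondrial ribosomal proteins from nuclear genes, stood at 52.2 against 212 CPM and 31.5 against 151 CPM in the control library and at 58.9 against 214 CPM and 49.9 against 180 CPM in the other. Enho, which encodes the peptide adropin, stood at 37.8 against 196 CPM and at 73.1 against 298 CPM. Gnai2, an inhibitory G protein subunit, had ratios of -2.04 (-2.26 to -1.83) and -1.70 (-1.79 to -1.61).

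**Figure D4:**
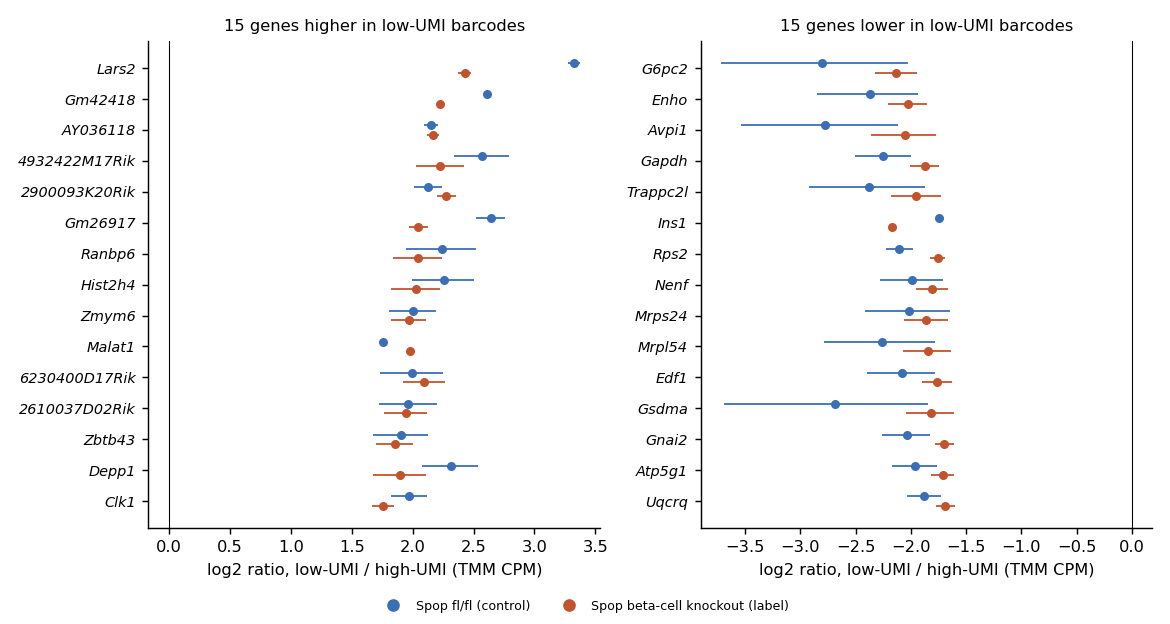
Log2 ratios of the 15 highest and 15 lowest genes in low-UMI against high-UMI insulin barcodes, with 95% exact counting intervals, in both libraries. G6pc2, Avpi1 and Gsdma have the widest control intervals because few UMIs were counted in the control low-UMI sum.

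Transcript length went with direction, a property the limits did not use. Among protein-coding genes whose longest annotated transcript is under 1000 bases (352 genes), the median log2 ratio was -1.46 and -1.29, and 86.1% were called lower. From 1000 and under 2000 bases (1280 genes) the medians were -1.04 and -1.01, and from 2000 and under 4000 bases (3225 genes) -0.41 and -0.52. From 4000 and under 8000 bases (2875 genes) they were 0.09 and -0.17, and from 8000 bases (585 genes) 0.39 and 0.06. In the longest class 16.8% were called higher and 6.15% lower. Without ribosomal protein, oxidative phosphorylation and insulin genes the shortest class still had medians of -1.37 and -1.22 in 280 genes, and the order of the length classes was the same. Long noncoding classes (295 genes) had medians of 0.77 and 0.89, with 154 called higher and 42 lower.

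The number of genes detected at equal depth was close, but the limits act on it. Low-UMI barcodes with under 500 genes were not admitted, and thinning left out 67 and 345 of those under 1000 UMIs. The values are therefore a description. After thinning to 1000 UMIs, low-UMI insulin barcodes had medians of 610 and 594 detected genes and high-UMI barcodes 634 and 610, with quartiles that overlap (511 to 648 against 554 to 683, and 555 to 634 against 513 to 668).

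The libraries also differed within the low-UMI insulin barcodes. At 1.5-fold, 877 genes (10.2%) were higher and 1404 (16.3%) lower in the knockout-labelled library than in the control library, against 634 (7.36%) and 347 (4.03%) in high-UMI insulin barcodes. Of the 877, 350 (39.9%) were also called higher in high-UMI barcodes, which is 55.2% of the calls there, and of the 1404, 220 (15.7%) were also called lower, or 63.4% of the calls there. Unscaled CPM raises the ratios between libraries by 0.22 in low-UMI barcodes. Low-UMI sums are smaller and have wider counting intervals, and 1 library stands for each genotype, so genotype, preparation and library cannot be told apart.

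The genes highest in the knockout-labelled library were Enpp2, Chgb, Egr1, Fos, Gpx3, G6pc2, Fam151a and Gsdma. Enpp2, which encodes the lysophospholipase autotaxin, stood at 35.1 CPM in the control and 235 CPM in the other low-UMI sum, a log2 ratio of 2.74 (2.28 to 3.24), against 3.23 (3.17 to 3.29) in high-UMI barcodes. Chgb, the granule protein chromogranin B, stood at 576 and 2449 CPM, a ratio of 2.09 (1.97 to 2.21) against 2.31 (2.29 to 2.33). Egr1, an immediate early factor, had 2.72 (1.95 to 3.61) and rested on 14 control UMIs. All 8 were higher in the knockout-labelled library in low-UMI and in high-UMI barcodes.

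Among the genes lowest in the knockout-labelled library were Lars2, Gm42418, Rnase4, Defb1, Mt2, Mgp and Ang. Mt2, a metallothionein that binds zinc, stood at 1449 CPM in the control and 465 CPM in the other low-UMI sum, a ratio of -1.64 (-1.74 to -1.54), against -1.26 (-1.28 to -1.24) in high-UMI barcodes. Rnase4 and Ang, secreted ribonucleases whose genes overlap, had -1.88 and -1.63 against -1.25 and -0.96, and their reads may be divided between them. Mgp, an extracellular matrix protein, had -1.84 (-2.19 to -1.49) and turned to 2.5 among barcodes with at least 1000 detected genes and to 0.93 with insulin above 10 times the other hormones. Gm42418, given as a mark of low-UMI insulin barcodes, was lower in the knockout-labelled library at either depth, with -1.97 and -1.59, while Malat1 was higher, with 0.53 and 0.31.

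**Figure D5:**
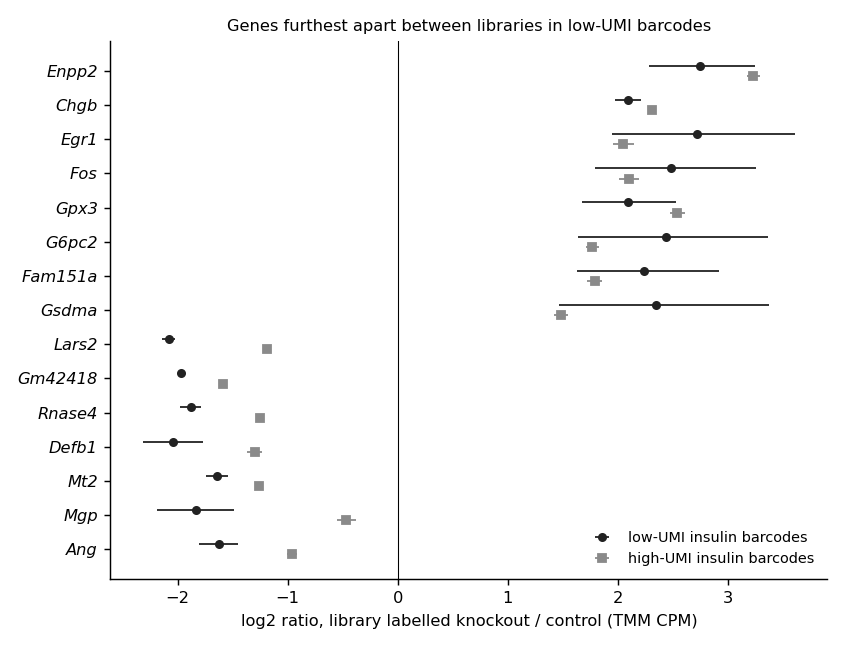
Log2 ratio of the knockout-labelled library to the control library for the 8 highest and 7 of the 8 lowest genes in low-UMI insulin barcodes (circles), with the same genes in high-UMI insulin barcodes (squares) and 95% exact counting intervals. All 15 genes have the same direction at both depths, and Mgp is further apart between depths than the others shown on the lower side.

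Endothelial, mesenchymal, glial and acinar RNA was scarce in low-UMI insulin barcodes, and RNA of some other cell types was less so. Summed endothelial markers stood at 2.70 and 6.82 CPM, mesenchymal markers at 6.30 and 12.3, and glial markers at 13.5 and 10.9, each under 15 CPM, against 9.64 and 3.75, 2.10 and 6.84, and 11.4 and 9.84 CPM in high-UMI barcodes. Of 10 acinar enzymes 9 were found, and they summed to 18 CPM against 6.20 CPM in the control library, a log2 ratio of 1.54 (0.80 to 2.20), and to 31.4 against 42.9 CPM in the other. The ductal markers stood at 114 and 185 CPM, against 269 and 461 CPM in high-UMI barcodes. Pancreatic polypeptide cell markers stood at 592 and 634 CPM against 688 and 1349 CPM, and delta cell markers at 74.7 and 127 CPM against 175 and 245 CPM. These last lists include hormones on which the limits act. Macrophage markers summed to 6.30 CPM for the control and 89.2 CPM for the other library, against 13.1 and 99.3 CPM in high-UMI barcodes, so the difference between libraries was present at either depth. Whether these RNAs came from captured cells or from free RNA was not tested.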

How the data were processed

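The authors deposited whole-number UMI counts per gene and barcode, made per the file headers with Cell Ranger 6.0.0. The genome build was mm10, and R 4.1.1 and Seurat 4.1.0 are named, per the submitters' processing notes. How barcodes were called as cells is not given in the sources used here. Depth was 82541585 UMIs over 7768 control barcodes and 89977773 over 10033 in the other library, for 32285 features. After limits of 500 genes and 15% mitochondrial UMIs, 6850 and 8842 barcodes remained. No doublet caller was run, and a ceiling of 20000 UMIs on the comparison barcodes was an alternative.

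Counts were summed per library and class and scaled with TMM factors (log-ratio trim 30%, level trim 5%) of 1.07 and 1.24 for low-UMI and 0.886 and 0.851 for high-UMI sums, computed with numpy 2.4.6 and tested on simulated data against edgeR 4.0.16. Intervals (scipy 1.17.1) were exact Poisson for levels, exact conditional binomial for ratios and Clopper-Pearson for shares of barcodes. Gene positions and transcript lengths came from GENCODE mouse release M21 by Ensembl identifier, with 102 of 102 named genes matched.

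Named genes were the 6 genes Ins1, Ins2, Snhg11, Gm42418, Malat1 and Spop, 15 genes on each side (mean level from 50 CPM, 1.5-fold in both libraries) in order of how far their intervals stay from equality, up to 4 members at the ends of each list, and 8 genes on each side between libraries. Neat1, Kcnq1ot1, Xist, Son, Eef1a1, Actb, Slc2a2 and Hspa1a were added after their values were seen. A few genes that these rules or lists take in are not reported here by name. The barcodes, limits and gene lists were chosen with earlier results of these data known. Alternatives covered scaling, barcode weighting, each limit, thinning and the comparison tier, of which 3000 or more and under 5000 UMIs was added after the data were seen.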

Additional observations from a re-analysis of the deposited data

Results flagged for a closer look

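Txnip went in opposite directions in the 2 libraries. Its log2 ratio of low-UMI to high-UMI insulin barcodes was 0.92 (0.39 to 1.40) in the control library and -0.83 (-1.07 to -0.61) in the knockout-labelled library, and the difference between libraries was not tested. High-UMI barcodes held 17.2 CPM in the control library and 79.6 CPM in the other, a log2 ratio of 2.21, and low-UMI barcodes 32.4 and 44.7 CPM, a ratio of 0.47. Against barcodes of 3000 or more and under 5000 UMIs the ratio of the knockout-labelled library turned to 1.10.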

How the results depend on the processing

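The ribosomal protein and nuclear long noncoding RNA shares kept their direction and passed 1.5-fold in both libraries under every alternative run, and the cause of the changes below was not tested. Over the 8614 genes tested on the TMM scale, unscaled CPM gave 2013 higher and 1277 lower calls in low-UMI barcodes. With unscaled CPM run as an alternative, 2048 genes were called higher and 1265 lower in low-UMI barcodes, and 1468 higher and 643 lower in the knockout-labelled library. Without insulin and mitochondrial genes in the total these counts were 1719, 1854, 1706 and 624, and with each barcode weighted equally 2201, 1233, 1439 and 727. With at least 1000 detected genes, 184 and 439 barcodes remained and 1457 genes were higher in the knockout-labelled library. A limit of 2000 UMIs left 401 control barcodes, insulin above 5% left 195 and 1257 barcodes and 620 genes called higher, and insulin above 10 times the other hormones left 301 control barcodes. The control TMM-scaled ratio of mitochondrially encoded RNA (log2 0.34) became 0.61 unscaled and 0.88 with equal weighting. It was 1.37 with no mitochondrial limit and 1.35 as a median of barcodes. The TMM-scaled ratio of the other library (-0.25) turned to 0.67 with no limit. It also turned without TMM factors, where the levels were 33808 CPM in low-UMI and 27490 CPM in high-UMI barcodes. Thinned to 1000 UMIs, detected genes differed by -0.056 and -0.038 on the log2 scale, against -2.09 and -2.20.

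Against barcodes of 3000 or more and under 5000 UMIs, 1496 genes were lower and the control rRNA-like ratio was 0.24. There the control ratios of Atf3 (0.21), Mirg (0.67), 6230400D17Rik (-0.13), Mafa (0.0058) and AY036118 (-0.10) turned, as did those of G6pc2 (0.38), Txnip (1.10), Vgf (1.00), Fosb (1.42), Mafa (0.36), mt-Nd1 (0.25) and mt-Nd3 (0.33) in the knockout-labelled library. With no mitochondrial limit the control ratios of Fosb (0.18), mt-Nd1 (0.93) and mt-Nd3 (1.02) and the other library's mt-Nd1 (0.40) and mt-Nd3 (0.19) turned. Insulin above 5% turned the control ratios of Spopl (-0.052) and Nqo1 (-0.91). Mgp between libraries turned to 2.5 with 1000 genes and 0.93 with insulin above 10 times.

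No paired analysis was possible because there was 1 library per genotype. No library was left out, for the same reason. Ratios of genes with few UMIs in the control low-UMI sum, such as G6pc2 with 13, are limited by depth.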
